A study of Mus musculus with 4 samples.

Results

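Simple-epithelial keratins and the core genes of the desmosome, 10 genes in all, were measured after knockout of KAP1 in embryonic stem cells of the mouse, which renew themselves in culture and can form all tissues of the embryo. KAP1 (gene Trim28) silences genes and repeats as the partner of KRAB zinc finger proteins, which carry it to their DNA sites. The 10 genes were chosen by symbol, as Krt7, Krt8, Krt18, Krt19, Krt20, Dsp, Jup, Pkp2, Dsg2 and Dsc2, and each was read from a probe set annotated to that symbol alone, the one with the highest mean where a gene had several. All 10 were among the 18820 genes measured. The KAP_KO group held 2 biological replicates of cells with the genotype KAP1 fl/fl, in which both alleles carry sites for conditional deletion, and the KAP_WT group held 2 biological replicates of wild-type cells. All 4 samples were labelled as treated with 4-OH-tamoxifen, the inducer of the deletion, and all grew on irradiated embryonic fibroblasts. Total RNA was read on Affymetrix Mouse Gene ST arrays, 1 array per sample, and values are RMA expression values on the log2 scale. Neither the driver of the recombinase nor any step to remove the fibroblasts was stated in the labels. The design text describes a comparison across the deletion, while the wild-type samples are labelled wild type. Whether the groups were 1 line or separate lines or clones is therefore not settled, and a difference between lines and loss of KAP1 cannot be told apart.

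Keratins are intermediate filament proteins that assemble as obligate pairs of an acidic type I chain (Krt18, Krt19 and Krt20 here) and a basic type II chain (Krt7 and Krt8). Krt8 and Krt18 are the founding pair of simple epithelia and the first keratins of the embryo, where they mark the trophectoderm. Desmosomes tie the keratin networks of neighbouring cells together. Their cadherins, the desmogleins (Dsg) and desmocollins (Dsc), bind across the gap between cells, the armadillo proteins plakoglobin (Jup) and plakophilin (Pkp) hold the cadherin tails, and desmoplakin (Dsp) links this plaque to the keratin filaments.

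Knockout cells had more keratin and desmosome transcript than wild-type cells for 9 of the 10 genes, and less for the remaining gene, Dsg2. In the comparison over all genes, with limma and an adjusted p of 0.05 as the threshold, 9 of the 10 genes rose and 1 fell, where 26.9% of all genes passed, 14.2% as rises and 12.7% as falls. At least 2-fold rises were found for 7 of the 10 genes, against 4.44% of all genes, and the fall of Dsg2 was also at least 2-fold, as it was for 1.46% of all genes. Both knockout samples lay above both wild-type samples for these 9 genes, as they did for 26.6% of all genes, and below them for Dsg2, as for 38.6% of all genes. The median change of the 10 genes was 1.84 on the log2 scale, and that of all genes was -0.05. The 10 genes were chosen with earlier results of these data known. The shares therefore describe the list beside all genes and do not test it. The array signal of Trim28, which checks the labels, was 8.97 and 8.92 in the knockout samples and 11.29 and 11.37 in the wild-type samples (change -2.38, adjusted p = 3.39e-05). The knockout signal of Trim28 stayed above 5.57, the median of the mean levels of all genes. The source of this remaining signal was not tested. In bulk RNA, more cells of a kind and more transcript per cell cannot be told apart.

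The start regions of 4 of the 5 keratin genes that rose are shown because the genes moved together, and so that short motifs can be compared with those of other promoters. Each is the 250 bases before the annotated start of the gene, 5′ to 3′ on the gene's own strand, from RefSeq on build GRCm38.p6. Krt8 lies on the minus strand (chr15:102004343-102004592) and Krt18 on the plus strand (chr15:102027966-102028215), so that the founding pair sits side by side and points away from each other. Krt7 is on the plus strand (chr15:101412153-101412402) and Krt20 on the minus strand (chr11:99438154-99438403). Capitals mark matches, on either strand, to any of 6 motifs: TGANTCA (AP-1), GGGCGG (the GC box of Sp1 and KLF factors), TATAAA (the TATA box), CATTCC (TEAD), AACCGG (the core of grainyhead-like factors) and CACCTG (the E-box of the SNAI and ZEB repressors).
Krt8: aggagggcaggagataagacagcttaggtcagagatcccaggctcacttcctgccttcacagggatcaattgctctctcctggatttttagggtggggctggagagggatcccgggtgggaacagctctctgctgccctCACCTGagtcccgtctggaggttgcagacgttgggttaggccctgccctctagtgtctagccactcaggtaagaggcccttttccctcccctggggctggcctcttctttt
Krt18: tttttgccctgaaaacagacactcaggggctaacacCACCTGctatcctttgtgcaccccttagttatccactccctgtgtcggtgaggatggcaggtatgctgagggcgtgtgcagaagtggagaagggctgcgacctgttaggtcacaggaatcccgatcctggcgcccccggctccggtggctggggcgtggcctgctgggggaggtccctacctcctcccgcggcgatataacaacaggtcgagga
Krt7: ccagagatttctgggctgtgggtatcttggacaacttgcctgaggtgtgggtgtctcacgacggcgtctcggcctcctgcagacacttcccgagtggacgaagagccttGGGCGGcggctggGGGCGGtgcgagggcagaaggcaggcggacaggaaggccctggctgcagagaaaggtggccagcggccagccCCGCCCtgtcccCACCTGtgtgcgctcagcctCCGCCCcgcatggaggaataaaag
Krt20: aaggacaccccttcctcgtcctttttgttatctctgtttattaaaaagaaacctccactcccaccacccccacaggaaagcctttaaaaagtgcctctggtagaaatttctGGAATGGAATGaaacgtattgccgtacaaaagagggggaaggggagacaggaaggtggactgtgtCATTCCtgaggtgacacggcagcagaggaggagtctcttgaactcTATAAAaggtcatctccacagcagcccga

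The E-box CACCTG was present once each in Krt8, Krt18 and Krt7, and 17.22% of all 32851 promoters of this length in the table hold it. Krt7 had 4 GC boxes, at 141, 128, 56 and 24 bases before the start, and 32.74% of all promoters hold at least 1. Krt20 had a TATA box 29 bases before the start (12.37% of promoters) and 3 CATTCC matches, at 139, 134 and 74 bases before it (12.64% of promoters). The 2 upstream CATTCC matches share 1 base. The starts of Krt19, Pkp2, Dsg2 and Dsc2 were not analysed here. The starts of Dsp and Jup, also in the table, held 4 and 2 GC boxes and none of the other motifs. None of these 6 windows held TGANTCA (6.75% of promoters) or AACCGG (5.62%). These are matches of letters in a short window, and no binding was measured.

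Krt8, the type II chain of the founding pair, read 11.19 and 11.52 in the knockout samples and 7.57 and 8.02 in the wild-type samples. The lowest knockout value stood far above the highest wild-type value, although the wild-type samples differed from each other by 0.45. The change was 3.56 (SE 0.18, adjusted p = 6.79e-05), an 11.8-fold higher level with a 95% interval of 8.84 to 15.8. Krt18, its type I partner, read 10.72 and 10.92 in the knockout samples and 7.48 and 7.44 in the wild-type samples. The wild-type samples of Krt18 nearly coincided, and the change was 3.36 (SE 0.10, adjusted p = 1.63e-05), or 10.3-fold (interval 8.66 to 12.2). The intervals of the partners overlap, and the difference between their rises was not tested. Ordered by size, these were rises 17 and 29 among all genes.

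Krt19, the type I keratin that lacks the usual tail domain, read 7.92 and 8.32 in the knockout samples and 5.27 and 5.12 in the wild-type samples. It rose by 2.93 (SE 0.15, adjusted p = 7.03e-05), which is 7.61-fold (interval 5.98 to 9.69). Krt7, a type II keratin of ducts and of trophoblast, read 7.0 and 7.35 in the knockout samples and 5.24 and 5.12 in the wild-type samples. Its rise of 2.00 (SE 0.13, adjusted p = 1.71e-04) was smaller than those of Krt8, Krt18 and Krt19, with no overlap of its interval (1.68 to 2.32) with theirs. Krt20, a type I keratin best known from intestinal epithelium and the umbrella cells of the bladder, read 5.02 and 5.23 in the knockout samples and 3.80 and 3.97 in the wild-type samples. It had the smallest rise of the 5 keratins, 1.24 (SE 0.12, adjusted p = 5.75e-04). The wild-type values of Krt20 sat near the lower quartile of all genes on those arrays (3.80 and 3.79), where RMA compresses differences and signal over background is unknown.

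**Figure D1:**
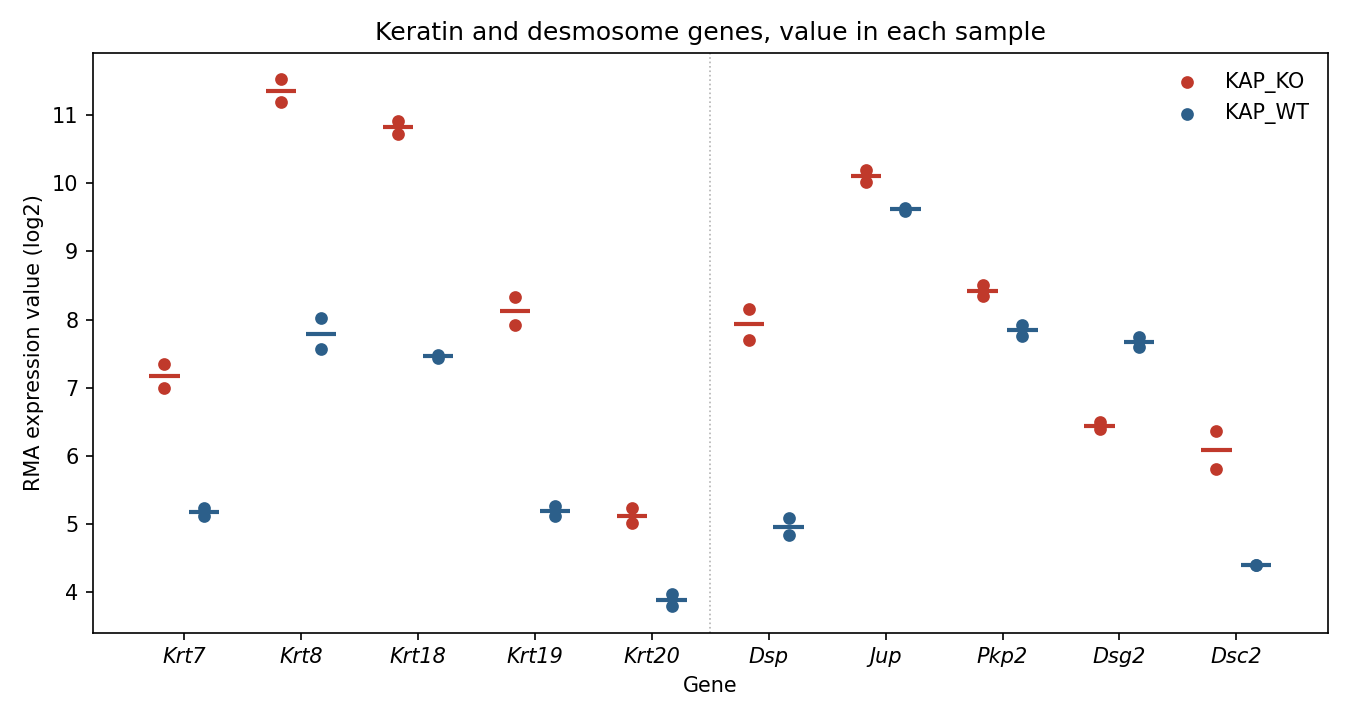
RMA expression value (log2, vertical axis) of each of the 10 genes in each sample, knockout in red on the left of each pair and wild type in blue on the right; short lines are group means and the dotted line separates keratins from desmosome genes. The groups are apart for every gene, with knockout higher for 9 and lower for Dsg2 (6.39 and 6.50 in knockout samples against 7.60 and 7.74 in wild-type samples).

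Among the desmosome genes the plaque and the cadherins each split by size or direction of change. Dsp, the linker to keratin, read 7.70 and 8.16 in the knockout samples and 5.08 and 4.83 in the wild-type samples. It rose by 2.97 (SE 0.17, adjusted p = 9.35e-05), a size within the intervals of Krt19. Dsp was the only one of the 10 genes with a second probe set of its own. That probe set read 5.23 and 5.65 in the knockout samples and 4.83 and 4.43 in the wild-type samples, a change of 0.81 (SE 0.18, adjusted p = 0.0219 over all single-gene probe sets). Both rose, but by unlike amounts, 2.97 and 0.81, and the mean of both gave a change of 1.89. The size of the Dsp rise therefore depends on the probe set. The labels do not say which exons each one covers.

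Jup, which encodes plakoglobin and serves adherens junctions as well as desmosomes, read 10.01 and 10.19 in the knockout samples and 9.64 and 9.60 in the wild-type samples. Its rise of 0.48 (SE 0.10, adjusted p = 0.0136), or 1.40-fold, was the smallest of the 9. Pkp2, the plakophilin of simple epithelia and heart, read 8.34 and 8.51 in the knockout samples and 7.92 and 7.76 in the wild-type samples, a rise of 0.58 (SE 0.11, adjusted p = 0.00865), or 1.50-fold. The calls of both were less firm than those of the other 8 genes. For Jup the adjusted p was 0.0744 with wild-type replicate 1 left out, 0.0930 without wild-type replicate 2, 0.0656 without knockout replicate 2 and 0.0506 after subtraction of array medians. For Pkp2 it was 0.0751 without wild-type replicate 2.

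The 2 desmosomal cadherins moved in opposite directions. Dsc2, the desmocollin of simple epithelia, read 5.80 and 6.37 in the knockout samples and 4.41 and 4.41 in the wild-type samples. It rose by 1.68 (SE 0.18, adjusted p = 9.30e-04), or 3.20-fold (interval 2.39 to 4.30), with the widest gap between knockout samples among the 10 genes, 0.57. Dsg2, the desmoglein that all desmosome-bearing tissues share, read 6.39 and 6.50 in the knockout samples and 7.60 and 7.74 in the wild-type samples. It fell by 1.22 (SE 0.10, adjusted p = 3.50e-04), a 2.33-fold lower level, and was the only one of the 10 genes that fell.

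**Figure D2:**
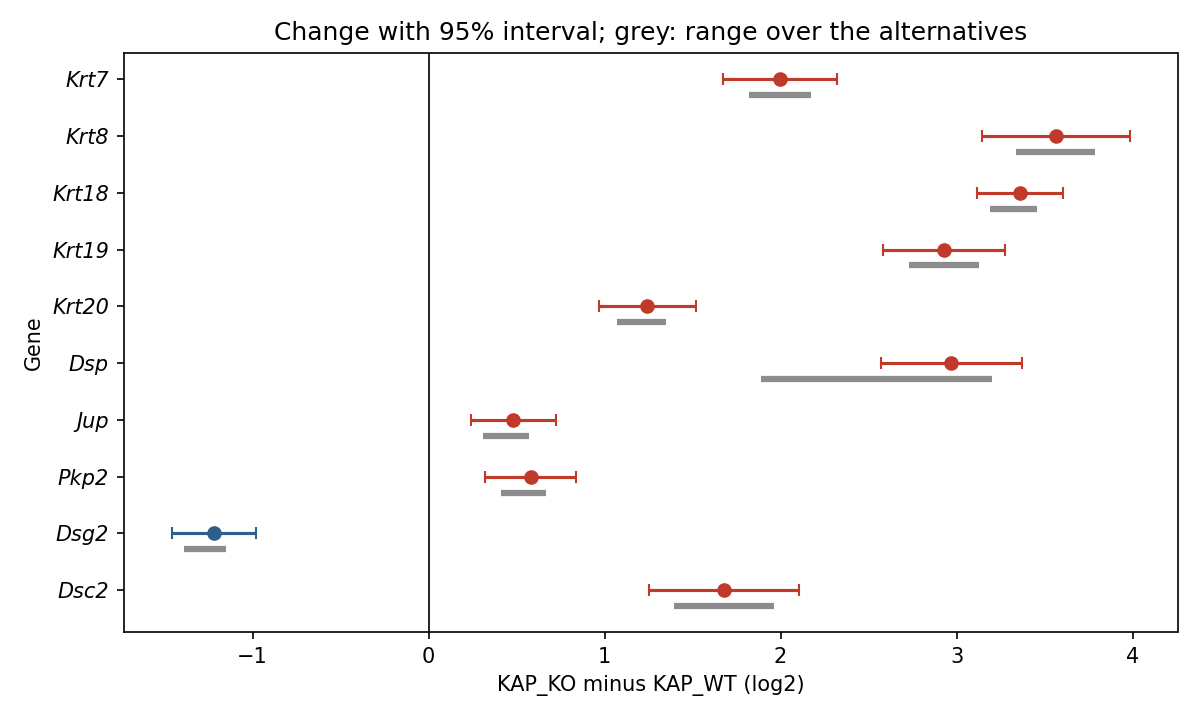
Change of each gene, knockout minus wild type on the log2 scale (horizontal axis), with its 95% limma interval; the grey bar under each is the range over the 11 alternatives tried. Rises run from 0.48 (Jup) to 3.56 (Krt8), Dsg2 stands alone below 0 at -1.22, and the longest grey bar is that of Dsp, 1.89 to 3.20, whose lower end is the mean of its probe sets.

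The knockout samples also differed from each other in a shared direction. All 10 genes read higher in knockout replicate 2 than in knockout replicate 1, with a median gap of 0.27, from 0.10 for Dsg2 to 0.57 for Dsc2. Over all genes 51.2% read higher in knockout replicate 2, with a median gap of 0.00. Of 16 defining markers of embryonic stem cells, 1 read higher in knockout replicate 2, with a median gap of -0.19. Among the other keratins 17 of 34 were higher in knockout replicate 2. Some other lists shared this order, with 12 of 14 keratin linkers, 12 of 15 other intermediate filament genes and 16 of 22 epithelial surface genes higher there. So were 14 of 19 endoderm markers, with a median gap of 0.33. Other lists did not: 14 of 26 tight junction genes, 9 of 16 adherens junction genes, 9 of 19 trophoblast markers and 13 of 26 fibroblast markers were higher there. Of 29 epithelial transcription and splicing factors, 10 were higher, with a median gap of -0.12. In the wild type 7 of the 10 genes read higher in replicate 1, and the median gap was 0.04. With 2 samples per group, these gaps are given as descriptions.

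The rise was found in 5 keratin genes of the 51 measured. Of the other 46, which include the keratins of stratified epithelia and of hair, 0 rose by limma, 5 fell and 41 did not pass. At an unadjusted p under 0.05, 0 rose and 7 fell. All 5 called falls were on the list of 34 other keratins (14.7% of that list). Over all genes 14.2% rose and 12.7% fell. Krt5 and Krt14, the pair of basal epidermal cells, changed by -0.02 and 0.23 (adjusted p = 0.898 and 0.237), and Krt1 and Krt10, the pair of differentiating epidermis, by 0.08 and -0.30 (adjusted p = 0.604 and 0.0834). On the list of 34 other keratins, Krt17, a stress-inducible type I keratin, fell by 1.71 (adjusted p = 3.86e-04), reading 5.87 and 5.47 in the knockout samples and 7.33 and 7.43 in the wild-type samples. Krt42, a type I gene next to it, fell by 1.09 (adjusted p = 0.00456), reading 6.01 and 5.50 in the knockout samples and 6.93 and 6.75 in the wild-type samples. Krt86, Krt13 and Krt71 fell by 0.45, 0.33 and 0.31. They read 2.86 to 3.84 in the knockout samples and 3.21 to 4.15 in the wild-type samples. These levels are below or near 3.80, the lower quartile of the mean levels of all genes. The falls on this list numbered 1 without wild-type replicate 1, 3 when replicate 2 of the wild type was left out and 2 without either knockout replicate, 3 with quantile normalization or without genes below the lower quartile, and 13 after subtraction of array medians; the adjusted p of Krt42 was 0.0644 in the first case. Keratin genes are close paralogs, and signal of near-identical copies cannot be assigned to 1 gene with certainty.

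**Figure D3:**
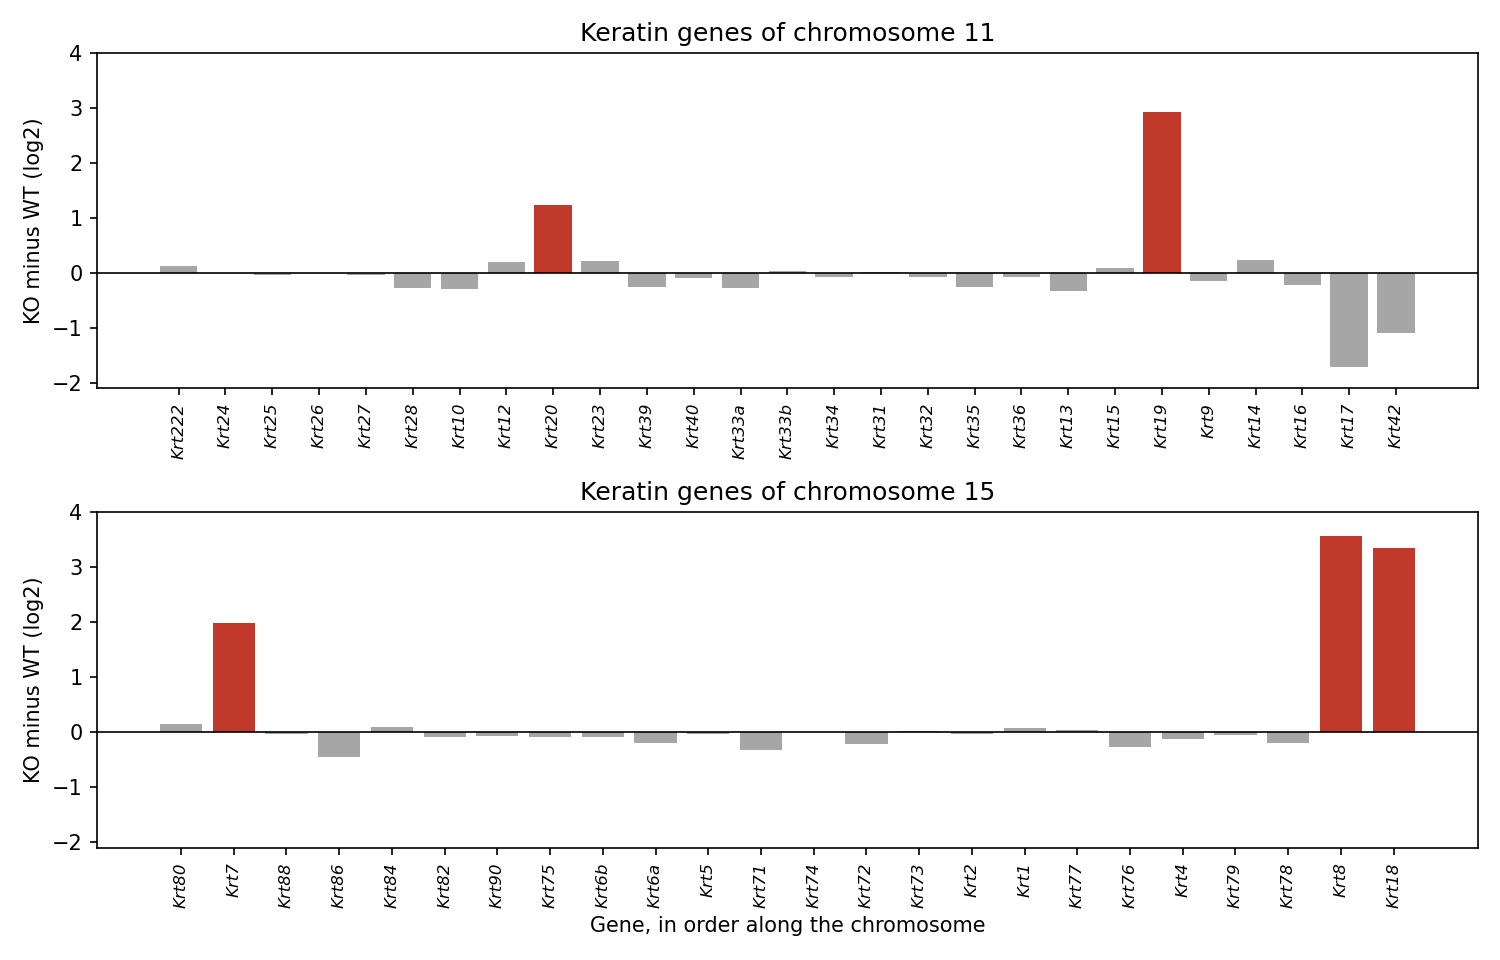
Change in expression, knockout minus wild type (log2, vertical axis), of the 51 keratin genes in their order along chromosomes 11 and 15; red bars are Krt7, Krt8, Krt18, Krt19 and Krt20 and grey bars the other keratins. The 5 rises stand among keratin genes whose changes lie between -1.71 (Krt17) and 0.23 (Krt14).

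No gene next to the keratin loci passed as a rise, but most of these neighbours are keratins already counted above, all of them around Krt19. Around Dsp, Jup and Pkp2, 2, 1 and 2 of 10 neighbours rose, and 2, 4 and 2 fell. Of the falls around Jup, those of Krt17 and Krt42 are also counted around Krt19. After subtraction of array medians 5 fell around Dsp, and 4 fell and 1 rose around Pkp2. Counts at each of these loci also moved with single samples left out. Over all genes 14.2% rose and 12.7% fell. Among the 5 tested genes on each side of the Krt8 and Krt18 pair, 0 of 10 rose by limma (also 0 at an unadjusted p under 0.05) and 2 fell (3 unadjusted), with changes from -0.74 to 0.26. Around Krt7, 0 of 10 rose and 4 fell, with changes from -1.92 (Grasp) to 0.26. Around Krt19 0 rose and 3 fell, with changes from -1.71 to 0.23. Around Krt20 none of 10 passed, with changes from -0.30 to 0.22. The unadjusted counts of rises were 0 at all 3 loci, and that of falls around Krt20 was 1. The count of falls around Krt8 and Krt18 was 0 without either wild-type replicate, 1 without knockout replicate 1 and 5 after subtraction of array medians. Around Krt7 it was 1 or 2 with any 1 sample left out, and 1 neighbour was called as a rise without knockout replicate 2. Around Krt19 it was 1 without wild-type replicate 1 and 6 after subtraction of array medians. Around Krt20 it was 1 when knockout replicate 2 was left out and 4 after that subtraction.

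Dsc2 and Dsg2 belong to 1 cluster of cadherin genes on chromosome 18. Between them lie Dsg1c, Dsg1b, Dsg4 and Dsg3, desmogleins of stratified epithelia, and on the far side of Dsc2 lies Dsc3. These 5 genes read 2.70 to 3.86 in the knockout samples and 2.76 to 3.81 in the wild-type samples, and none passed, with limma adjusted p-values from 0.393 to 0.643 and 0 at an unadjusted p under 0.05. Cdh2, the N-cadherin gene, lies outside the cluster, 3.15 Mb from Dsc3, where the stretch from Dsc3 to Dsg2 spans 0.644 Mb. It read 8.74 and 9.17 in the knockout samples and 5.72 and 5.46 in the wild-type samples and rose by 3.37 (adjusted p = 6.53e-05). On the other side, B4galt6, Trappc8 and Rnf125 beyond Dsg2 fell by 0.65, 0.35 and 0.31 (adjusted p = 0.00480, 0.0417 and 0.0471), less than Dsg2 itself. Falls beside the pair numbered 0 without wild-type replicate 1 and 1 when any other sample was left out, and 5 after subtraction of array medians. This locus was looked at after the values of the 10 genes were seen.

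**Figure D4:**
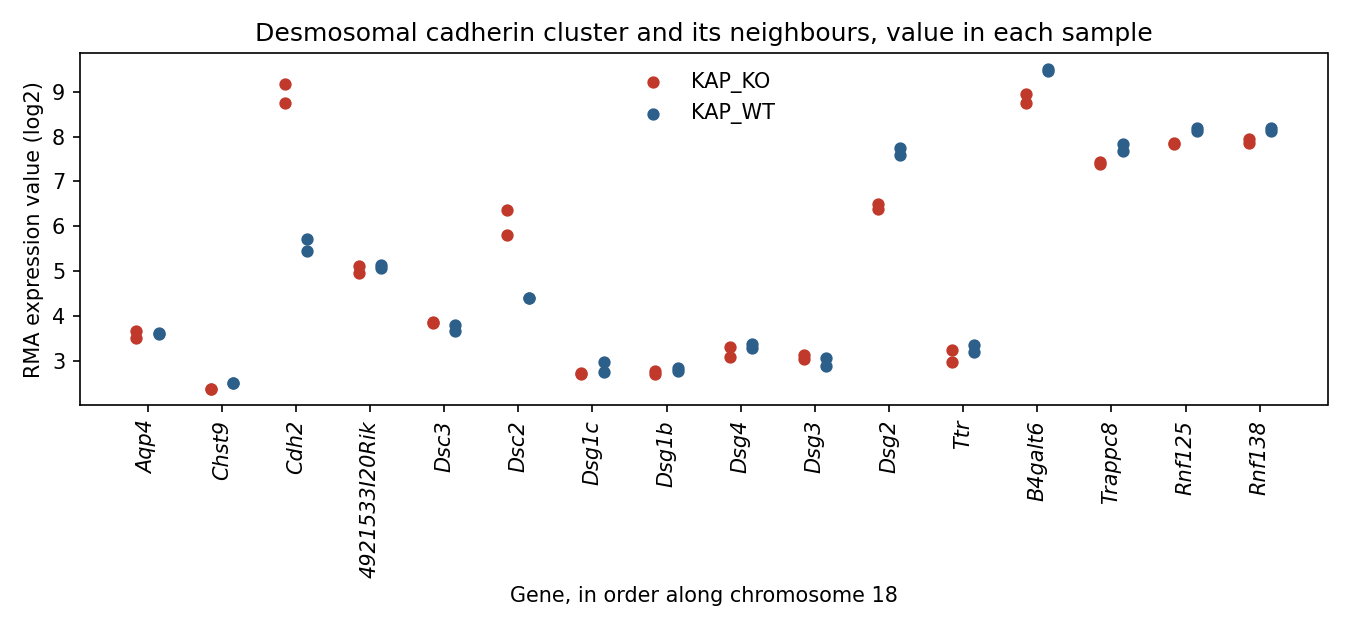
RMA expression value (log2, vertical axis) in each sample for Dsc2, Dsg2 and the genes beside and between them, in their order along chromosome 18, knockout in red on the left of each pair and wild type in blue on the right. Cdh2 and Dsc2 were higher in the knockout samples and Dsg2 lower, while the desmogleins between them and Dsc3 stayed under 4 in all 4 samples.

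Other desmosome genes passed about as often as all genes. Of 12 measured on the list of further desmosomal and cornified-plaque genes, 2 rose (16.7%, against 14.2% of all genes). There was 1 fall (8.33%, against 12.7%), and the median change was -0.10. Perp, a tetraspan protein of desmosomes and a p53 target, had a change of 0.97 (adjusted p = 0.0119), reading 8.15 and 8.79 in the knockout samples and 7.54 and 7.46 in the wild-type samples. The plakin gene Ppl had a change of 0.59 (adjusted p = 0.00989), and Cdsn, which encodes the corneodesmosin of the outer epidermis, fell by 0.65 (adjusted p = 0.00351). Both rises lost their calls without either wild-type replicate, with adjusted p-values of 0.0910 and 0.112 for Perp and 0.0716 and 0.0831 for Ppl. Falls numbered 3 after subtraction of array medians. The plakophilins of stratified epithelia, Pkp1 and Pkp3, had changes of -0.11 and -0.08 (adjusted p = 0.664 and 0.554).

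The call rate of genes listed with keratin filaments, by name or by function, was near that of all genes. Of 14 measured, 3 rose by limma (21.4%, against 14.2% of all genes) and 0 fell (also 0 unadjusted, against 12.7% of all genes). The median was -0.03. The rises were those of Krtcap2 (0.53), Krtcap3 (0.50) and the plakin gene Plec (0.47, adjusted p = 0.0452). Only the product of Plec is described here, which links keratin to other filaments and to hemidesmosomes. Rises on this list numbered 0 without wild-type replicate 1 or knockout replicate 2, and 1 without wild-type replicate 2 or after subtraction of array medians, which gave 4 falls. Plec had adjusted p-values of 0.229, 0.128 and 0.180 without wild-type replicate 1, wild-type replicate 2 and knockout replicate 2. The hemidesmosome integrin genes Itgb4 and Itga6 had changes of 0.08 and -0.18, and neither passed.

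Intermediate filament genes other than keratins rose in 6 of 15 cases (40%, against 14.2% of all genes). They fell in 2 (13.3%, against 12.7%), and the median was 0.09. Vim, the vimentin gene of mesenchymal and cultured cells, read 11.38 and 11.56 in the knockout samples and 10.14 and 9.93 in the wild-type samples, a rise of 1.44 (adjusted p = 3.34e-04). Nes, the nestin gene of neural progenitors, rose by 2.36. Nefl and Nefm, which encode neurofilament chains, rose by 2.07 and 1.97. Ina and Prph, also neuronal filament genes, rose by 0.64 and 0.59 (limma adjusted p = 0.00618 and 0.00765). The neurofilament gene Nefh (-0.20, adjusted p = 0.202) and the glial gene Gfap (-0.16, adjusted p = 0.567) did not pass. The 2 falls, among them that of the muscle filament gene Des, were not called without either wild-type replicate, and falls numbered 1 without knockout replicate 2 and 4 after subtraction of array medians.

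Other junction genes of epithelia rose more often than they fell. In the adherens junction list 9 of 16 rose (56.25%, against 14.2% of all genes) and 2 fell (12.5%, against 12.7%), with a median of 0.42. The largest rises were those of the cadherin genes Cdh2 (3.37) and Cdh3 (1.58), the delta-catenin gene Ctnnd2 (1.38) and the vinculin gene Vcl (1.13). Cdh1, the E-cadherin gene of epithelia and of embryonic stem cells, read 10.48 and 10.54 in the knockout samples and 9.95 and 9.94 in the wild-type samples, a rise of 0.57 (adjusted p = 0.00453). E-cadherin and N-cadherin transcripts were thus both higher. In the tight junction and polarity list 13 of 26 rose (50%) and 3 fell (11.5%), with a median of 0.36. The claudin genes Cldn6 and Cldn7 rose by 1.75 and 1.64 and the polarity gene Patj by 1.63, while the adhesion gene Jam2 fell by 1.49, reading 8.85 and 8.50 in the knockout samples and 10.18 and 10.16 in the wild-type samples. The falls numbered 0 without either wild-type replicate and 1 without knockout replicate 1 for adherens junctions, 1 without wild-type replicate 2 for tight junctions, and 4 and 5 for the 2 lists after subtraction of array medians.

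Of 22 epithelial surface and apical genes 12 rose (54.5%, against 14.2% of all genes) and 1 fell (4.55%, against 12.7%). The median was 0.62. The annexin genes Anxa2, Anxa1 and Anxa3, whose products bind membranes in the presence of calcium, rose by 3.02, 2.89 and 2.85, and the channel-activating protease gene Prss8 by 1.64. Epcam, the epithelial adhesion molecule also made by embryonic stem cells, rose by 0.62, reading 9.95 and 9.94 in the knockout samples and 9.28 and 9.37 in the wild-type samples. The 1 fall, that of Vil1 (-0.33), was not called when any 1 sample was left out, with an intensity trend or with quantile normalization, and falls numbered 4 after subtraction of array medians.

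**Figure D5:**
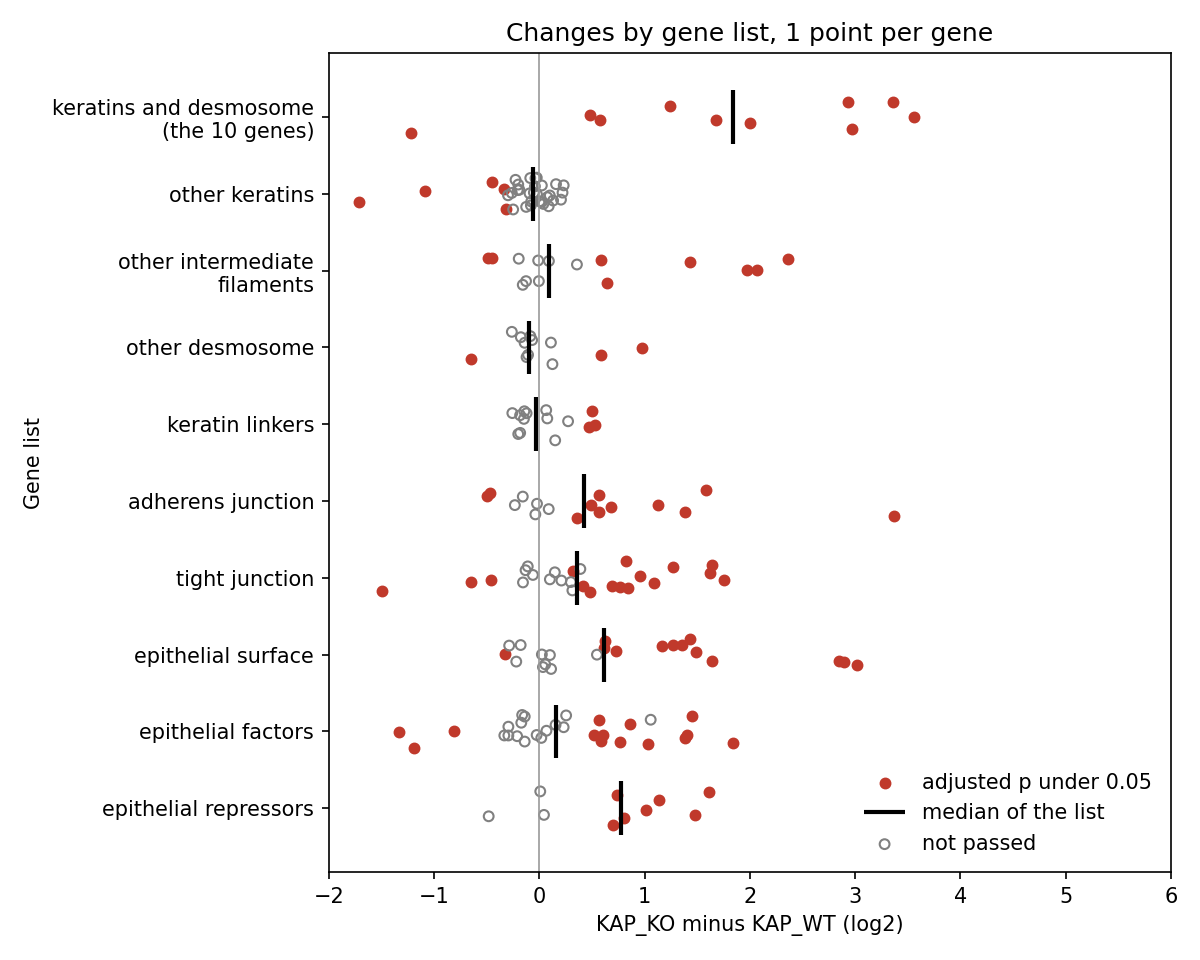
Changes of single genes (knockout minus wild type, log2, horizontal axis) in the 10 keratin and desmosome genes and in 9 companion lists; filled points passed an adjusted p of 0.05 and bars are list medians. The 10 genes have a median of 1.84, the other keratins one of -0.06, the other desmosome genes one of -0.10 and the epithelial surface genes one of 0.62.

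Transcription and splicing factors of epithelia went both ways, with 11 of 29 higher (37.9%, against 14.2% of all genes). There were 3 lower (10.3%, against 12.7%), and the median was 0.15. The 3 falls were those of Klf4 (-1.34), Klf5 (-1.19) and Tfap2c (-0.81). Klf5 read 9.77 and 9.51 in the knockout samples and 10.84 and 10.81 in the wild-type samples. The splicing regulator Esrp1 of epithelial cells rose by 1.38, the trophoblast factor Gata2 by 1.45 and Klf6 by 1.41. Jun, an AP-1 subunit, had a change of 1.84 (adjusted p = 0.0165, 0.122 without wild-type replicate 2), reading 9.05 and 8.07 in the knockout samples and 7.26 and 6.18 in the wild-type samples. The grainyhead-like gene Grhl2, a regulator of epithelial junction genes, had a change of 0.52 (adjusted p = 0.0108), and its relative Grhl3 one of -0.02 (adjusted p = 0.914). Ovol1 had a change of 0.57 (adjusted p = 0.00596) and Ovol2 one of -0.14 (adjusted p = 0.338). Grhl2 missed the threshold without wild-type replicate 1 (0.0775), wild-type replicate 2 (0.0717) or knockout replicate 2 (0.0505), and Ovol1 without wild-type replicate 2 (0.0562). Rises numbered 7 when wild-type replicate 1 was left out and 4 when replicate 2 was. The falls numbered 1 without either wild-type replicate, 5 without knockout replicate 1 and 9 after subtraction of array medians.

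Repressors of epithelial genes were higher in the same samples. Of 10 measured, 7 rose (70%, against 14.2% of all genes) and 0 fell by limma (against 12.7%). At an unadjusted p under 0.05, 1 fell, and the median was 0.77. Among the rises, Twist1, Twist2 and Prrx1 are also on the list of fibroblast and feeder markers. Zeb2 read 5.95 and 6.20 in the knockout samples and 4.42 and 4.50 in the wild-type samples, a rise of 1.61 (adjusted p = 2.02e-04), and Snai1 rose by 1.48. Twist1 and Twist2 rose by 1.14 and 1.01; leaving out wild-type replicate 2 gave Twist1 an adjusted p of 0.0629. Zeb1 had a change of -0.48 and did not pass, and the list had 1 fall without knockout replicate 1, with quantile normalization, after subtraction of array medians and without genes below the lower quartile. The E-box CACCTG, printed above in the starts of Krt8, Krt18 and Krt7, is a motif of the SNAI and ZEB repressors on this list. It is found in 17.22% of all promoters, and a link between these repressors and the keratins was not tested.

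Markers of other cell types that could hold keratins were read in the same samples. Of 19 trophoblast markers 6 rose (31.6%, against 14.2% of all genes) and 2 fell (10.5%, against 12.7%), with a median of 0.02. Mean list levels were 6.0 and 5.96 in the knockout samples and 5.75 and 5.70 in the wild-type samples. Cdx2, Gata2, Gata3, Tfap2c, Eomes and Elf5 are also on the list of epithelial factors. Cdh3, among the rises, is also on the adherens junction list. Cdx2, the trophectoderm factor, rose by 1.03, reading 5.58 and 5.80 in the knockout samples and 4.69 and 4.62 in the wild-type samples. Hand1, a factor of giant cells, rose by 0.98, while Tfap2c had a change of -0.81 (adjusted p = 0.00453; 0.0527 and 0.0567 without wild-type replicate 1 and 2), and Gata3 one of 0.23 (adjusted p = 0.216). Elf5 (3.16 in knockout and 3.32 in wild type) and Tpbpa (2.68 in knockout and 2.73 in wild type), markers of trophoblast stem cells and of the spongiotrophoblast, were near the low end of the arrays in both groups. The 2 falls were not called without either wild-type replicate, 1 fall was called without knockout replicate 2, and 5 were after subtraction of array medians.

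Primitive and visceral endoderm also carry Krt8, Krt18 and Krt19. Of 19 markers of these cells, 11 rose (57.9%, against 14.2% of all genes) and 0 fell by limma (against 12.7%). Unadjusted, 1 fell, and the median was 0.97. Foxa2, among the rises, and Hnf4a are also on the list of epithelial factors. Mean list levels were 6.58 and 6.78 in the knockout samples and 5.91 and 5.97 in the wild-type samples. Col4a2 and Col4a1 rose by 1.91 and 1.85, Gata4 by 1.47 and Cited1 by 1.44 (adjusted p = 0.0597 without wild-type replicate 1). Afp (3.39 in knockout and 3.47 in wild type) and Ttr (3.11 in knockout and 3.28 in wild type), secreted products of visceral endoderm, were low in both groups. Of 26 fibroblast and feeder markers 19 rose (73.1%) and 0 fell by limma (also 0 unadjusted), with a median of 1.01. Among the rises, Vim, Pdgfra, Twist1, Twist2 and Prrx1 are also on other lists here. Mean list levels were 6.63 and 6.65 in the knockout samples and 5.48 and 5.12 in the wild-type samples. Acta2 and Tagln, both contractile, had rises of 4.65 and 4.61, followed by the matrix gene Thbs1 by 4.22 and the proteoglycan gene Bgn by 2.86. Acta2 read 10.27 and 10.46 in the knockout samples and 6.78 and 4.64 in the wild-type samples. Thbs1 read 10.37 and 10.74 in the knockout samples and 7.50 and 5.17 in the wild-type samples. Wild-type replicate 1 was the higher one for both genes and for Bgn (6.71 and 5.14). With wild-type replicate 1 left out the changes were 5.73 for Acta2, 5.38 for Thbs1 and 3.64 for Bgn, and with replicate 2 left out they were 3.58, 3.06 and 2.08. The fibroblast surface marker Thy1 had a change of 0.25 and the activated-fibroblast protease gene Fap one of -0.08 (2.69 in knockout and 2.77 in wild type); neither passed. Values of RMA have no 0, so no marker could be listed at 0. The part of any of these cell types in the keratin and desmosome changes was not tested.

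The labelled cell type was checked by its own markers. Of 16 defining markers of embryonic stem cells 11 fell (68.75%, against 12.7% of all genes) and 1 rose (6.25%, against 14.2%). The median was -0.46. Mean list levels were 9.65 and 9.40 in the knockout samples and 10.10 and 10.09 in the wild-type samples. Pou5f1, the Oct4 gene, read 10.86 and 10.78 in the knockout samples and 11.28 and 11.33 in the wild-type samples, Sox2 10.10 and 9.69 in knockout and 10.82 and 10.66 in wild type, and Nanog 10.41 and 10.24 in knockout and 10.65 and 10.84 in wild type. All 3 remained strongly read in the knockout samples, with changes of -0.49, -0.85 and -0.42. Fgf4 (-1.47), Klf4 (-1.34), Tfcp2l1 (-1.32) and Esrrb (-1.11) fell most on the list. The fall of Klf4 is also counted among the epithelial factors. Falls numbered 4 without either wild-type replicate, and Pou5f1, Sox2, Nanog, Klf4 and Esrrb missed the threshold there (adjusted p from 0.0534 to 0.176); the 1 rise, that of Lin28a, was not called without wild-type replicate 1, wild-type replicate 2 or knockout replicate 2, or with the mean of its probe sets. Of 4 measured blood and endothelial markers 0 rose by limma (also 0 unadjusted) and 2 fell, Pecam1, which embryonic stem cells also make, by 0.96 and Cd68 by 0.56; leaving out wild-type replicate 2 gave Cd68 an adjusted p of 0.0565 and 1 called fall.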

How the data were processed

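Log2 values for 35556 probe sets were deposited by the authors, whose tools, per the submitters' processing notes, were RMA and affy, without versions. Of these, 21218 probe sets are annotated to 1 gene symbol, 1881 to several and 12457 are not listed in the platform annotation used here. Single-symbol probe sets, 1 per gene by highest mean, gave 18820 genes, with no filter on dim genes. The test of knockout against wild type was two-sided limma (3.58.1, under R 4.3.3; functions lmFit and eBayes) with Benjamini-Hochberg adjustment over all genes; the errors rest on 2 residual degrees of freedom, 4.70 from the prior and its SD, 0.105. All p-values in the text come from this model. With 2 arrays per group, their number limits the precision, and the p-values do not cover variation between lines. Pearson's r over all probe sets was 0.995 between the knockout arrays, 0.994 between the wild-type arrays and 0.974 to 0.976 across groups. Groups came from the sample titles.

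The 10 genes and the companion lists were chosen with earlier results of these data known. Named genes were the 10, Trim28, up to 4 called genes of largest change per list, and a fixed set of regulators and junction genes; the neighbours of the keratin genes are given as counts and ranges. Other genes were named after their values were seen. Gene order and promoters came from RefSeq on GRCm38.p6; the labels name no build for the array. A comparison of protein sequences was not made.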

Additional observations from a re-analysis of the deposited data

How the results depend on the processing

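The settings tried were a replicate block, an intensity trend, a robust prior, leaving out genes below the lower quartile, quantile normalization, subtraction of array medians, averaging probe sets per gene and each sample left out in turn. A group left with 1 sample is assumed to vary like the other. Over these 11 alternatives 8 of the 10 genes kept their direction and their call, and Jup and Pkp2 kept their direction; 7 to 9 genes rose with 1 sample left out, 8 with array medians subtracted and 9 in the others, and Dsg2 fell in all 11. Over all genes, calls numbered 5071, with a range of 2430 to 4350 with 1 sample left out (1531 to 2405 higher and 899 to 1945 lower), the lowest without wild-type replicate 2. Subtracting array medians, which moves every change by -0.17, gave 8457 calls, 6392 of them lower, and brought the share of rises among calls to 24.4%, against 52.8% as deposited. The replicate block gave 5093 calls, 9 rises and 1 fall among the 10 genes, with Nanog at an adjusted p of 0.0511, 1 fall beside Dsc2 and Dsg2 in place of 3, 0 falls in place of 1 among epithelial surface genes, and 1 in place of 0 among epithelial repressors; deviations of same-numbered samples correlated at 0.15 over genes, from 1 comparison, and the labels do not say whether the numbers pair the samples. Of 64 further named genes 20 lost their call in at least 1 alternative. Uncalled changes that turned sign were those of Grhl3, from -0.18 to 0.13 with 1 sample left out (0.02 without wild-type replicate 1), and Pkp1, from -0.34 to 0.12. Other background corrections need scanner intensities and were not run. No signal over background was available to judge dim genes such as Krt20.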
